A study of Lolium perenne with 10 samples.

Results

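The response of perennial ryegrass (Lolium perenne, a cool-season pasture and lawn grass) leaves to submergence was examined in the genes that were already read in untreated leaves. A gene here is a row of the deposited count table, an assembled sequence cluster without a gene name. Rows were chosen by their control counts alone, as those with at least 10 counts in both control libraries. This rule kept 17033 of 46394 rows (36.7%), and left aside sequences read only under submergence, which could stem from another organism. The genes kept are called members. Control counts therefore chose the members, so that members cannot be absent from control, and a gene that started near 0 could not enter. The share of library counts they hold, and how many rose as against how many fell, follow partly from that choice.

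Under water, gases diffuse slowly, so submerged leaves run short of oxygen and carbon dioxide and accumulate the hormone ethylene. Plants are known to answer by restraining growth and photosynthetic activity, by drawing on stored carbohydrate and by fermenting sugars, or, in some species, by elongating towards the surface. Which of these processes the members belong to cannot be read from the table. None of its identifiers (0 matches) occurs among the 56406 genes of the RefSeq table for the Kyuss_2.0 assembly, so no pathway could be followed and the labelled tissue could not be checked against leaf markers.

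Wild-type seedlings made up every group, with leaf RNA of 30 seedlings pooled in each library and 2 libraries per group. Day length was 16 h, at 22 °C, and nights were kept at 18 °C. Control seedlings received no stress, and submergence seedlings were put under water for a time and at a depth and age that the sources used here do not give. Any difference in age between these groups cannot be told apart from submergence. The other treatments enter below only for comparison. Drought seedlings went without water for 7 days from day 7. The temperature groups carry the names title-cold and title-heat because their treatment field says the opposite of the title. Their seedlings were 14 days old and spent 12 h at 4 °C or 42 °C, but which group had which temperature is not known. Total counts ran from 10847727 to 12605087 per library. In bulk leaf RNA, fewer cells of a type and less RNA per cell cannot be told apart.

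Just inside the threshold lay 955 members whose lower control count was 10 to 12. In control their median counts were 12 and 13, and under submergence 23 and 26. Just outside lay 1291 rows with a lower control count of 7 to 9, with medians of 9 and 10 in control and 17 in each submergence library. These are raw counts of rows chosen for low control counts, and they are not scaled for library composition. With edgeR's TMM factors for composition, the median log2 change of the 955 members was −0.005. For the 1190 of the 1291 rows outside that were tested, it was 0.113.

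Most members were still read in submerged leaves, but the counts were spread over many more of them. The 10 most-read members of a library took 24% and 21% of all counts in control and 10.5% and 11.2% under submergence. The 100 most-read members took 51.7% and 48.4% in control against 27.8% and 29.6% under submergence, so the groups did not overlap. Reaching 50% of the members' counts took 83 and 114 members in control, 559 and 483 under submergence, and 147 to 238 in the libraries of the other treatments. The shares are of all counts of a library, while the numbers of members refer to the members' counts alone. None of these figures depends on a scaling factor, and rows outside the members were not ranked. All rest on reads, which also depend on transcript length, and no length is known here.

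**Figure D1:**
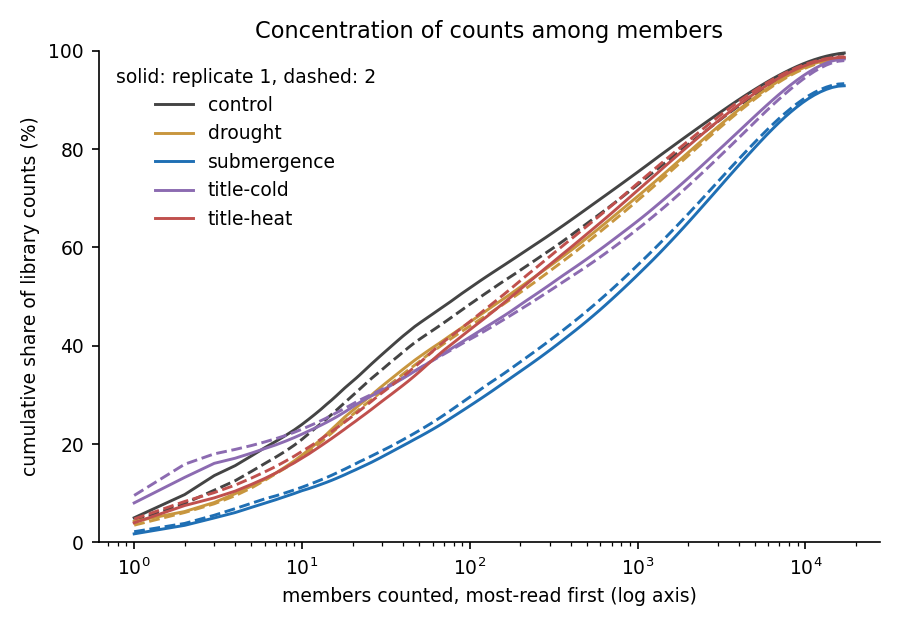
Cumulative share of each library's counts (vertical axis, %) held by its most-read members (horizontal axis, number of members on a log scale), with 1 line per library. The submergence lines run lowest over most of the range, with 27.8% and 29.6% at 100 members against 51.7% and 48.4% in control.

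The rows left aside took up more of the library under submergence than in control. Members held 99.5% and 99.4% of the counts in control, as the rule requires, and 92.9% and 93.3% under submergence, against 98% to 98.8% in the libraries of the other treatments. Membership of the 100 most-read also turned over. Of the 100 members most read in control, 50 were among the 100 most read under submergence, and 4 lay beyond rank 1000 there. In the other direction, 32 of the 100 most read under submergence had lain beyond rank 1000 in control. Control shared 78, 69 and 72 of its 100 most-read members with drought, title-cold and title-heat.

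Loss of reads was rare. At least 10 counts in both submergence libraries were found for 15907 members (93.4%), against 15129 in both drought libraries, 16116 in title-cold and 15054 in title-heat. Fewer than 10 counts in both submergence libraries were found for 547 members (3.21%), and 90 of these had 0 in both. Control levels of these 90 ran from 1.15 to 27.1 CPM with a median of 2.36, where CPM is the count scaled to library depth and to the TMM composition factor. With a floor of 3 counts per library, the control mean of each of the 90 was at least 6.03-fold above the submergence floor. The median of these bounds was 12.4-fold, and 83 of the 90 were called lower in the edgeR test described below. As the 90 were picked for 0 counts in libraries that this test uses, the calls are no further support for the loss. Floors of this kind cover counting error only. Of the 90, 7 also had 0 counts in both drought libraries, 16 in title-cold and 29 in title-heat. At least 10 counts in both libraries of drought, title-cold and title-heat were found for 32, 26 and 26 of them.

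Many members differed between submerged and control leaves, in both directions. Tests came from a single model of the whole table, edgeR's quasi-likelihood test over 27571 rows, in which every member passed the filter on low counts. A gene was called where its p, adjusted over all tested rows by the Benjamini-Hochberg method, was below 0.05. Against control, 3610 members (21.2%) were higher under submergence and 4417 (25.9%) were lower. Over all tested rows 32.2% were called higher and 17.1% lower. The members lie below the former share and above the latter by construction, since rows without control reads can only be called higher. Among called members the median log2 change was 1.30 for the higher genes (quartiles 0.89 and 1.97) and −1.71 for the lower (quartiles −2.48 and −1.13), and 2478 and 3546 of them changed at least 2-fold. The median over all members was −0.10, beside 0.29 over all tested rows, and 58.3% of members stayed within 2-fold of control.

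How many members were higher and how many lower depended on scaling. TMM factors were 0.825 and 0.913 for the control libraries and 1.398 and 1.304 for submergence. With total counts in place of these factors, fold changes of members shifted by a median of 0.64 on the log2 scale, the median change became 0.54, and 71.5% of calls were higher in place of 45%. A fit on the members alone gave 4288 higher and 4005 lower calls, which also turned their order. No member changed the direction of its call between TMM and total counts (0 in either direction). As a change of scaling moves members by about the same amount, such reversals were hardly possible. Their absence is no support for the directions. Under each of the 4 scalings run (TMM, RLE, upper-quartile and total counts), 2825 members (16.6%) were called higher and 2729 (16%) lower, beside 28.9% and 10.6% of all tested rows. Upper-quartile factors alone gave the same 2825 higher calls, and total counts alone the same 2729 lower calls. These numbers are therefore those of the strictest scaling on each side, not added support from 4 methods.

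The replicates of a group lay close together in most members. The median member differed between the replicates of a group by 0.25 on the log2 scale in control and likewise by 0.25 under submergence, and by at least 2-fold in 5.19% and 5.6% of members. Both submergence libraries lay above both controls in 6047 members (35.5%) and below both in 7004 (41.1%), where the corresponding shares of all tested rows were 45.8% and 28.7%. Of these members 5026 were not called, so groups of 2 libraries that do not overlap do not by themselves show a difference past the test. Tested against a change of 2-fold (edgeR's glmTreat), 1461 members (8.58%) were higher by more than that and 2456 (14.4%) lower, beside 23.1% and 9.54% of all tested rows. With total counts these numbers became 3062 and 1345, so their order turned.

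The called genes exchanged places in the make-up of the library. The members called higher held 6.7% and 7.78% of the counts in control and 39.3% and 37.6% under submergence. The members called lower held 79.9% and 76.9% in control and 31.5% and 34.8% under submergence. As calls rest on these same libraries, the shares describe the size of the change and are no further support for it. In the libraries of the other treatments the same higher genes held 10.7% to 16.2% and the same lower genes 60.4% to 71.9%. The 10 most-read of the higher genes under submergence made up 6.53% and 5.84% of all counts there, and 0.662% and 0.868% in control.

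The most heavily read members were mostly lower under submergence. To keep the ranking apart from the libraries compared, members were sorted into 10 equal classes by their mean level in the 6 libraries of drought, title-cold and title-heat. In the highest class, above 83.5 CPM, 1021 of 1704 members (59.9%) were lower than in control and 306 (18%) higher. The median log2 change of this class was −0.96. Over all members 25.9% were lower and 21.2% higher, and over all tested rows 17.1% and 32.2%. Rows outside the members were not classed by level. In class 7, between 16.7 and 25.2 CPM, 24.1% were lower and 29.5% higher, with a median of 0.11. In the lowest class, up to 2.16 CPM, 20.5% were lower and 5.87% higher. Members of that class had to be read in control although they were thinly read elsewhere, so the rule itself favours a fall there.

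**Figure D2:**
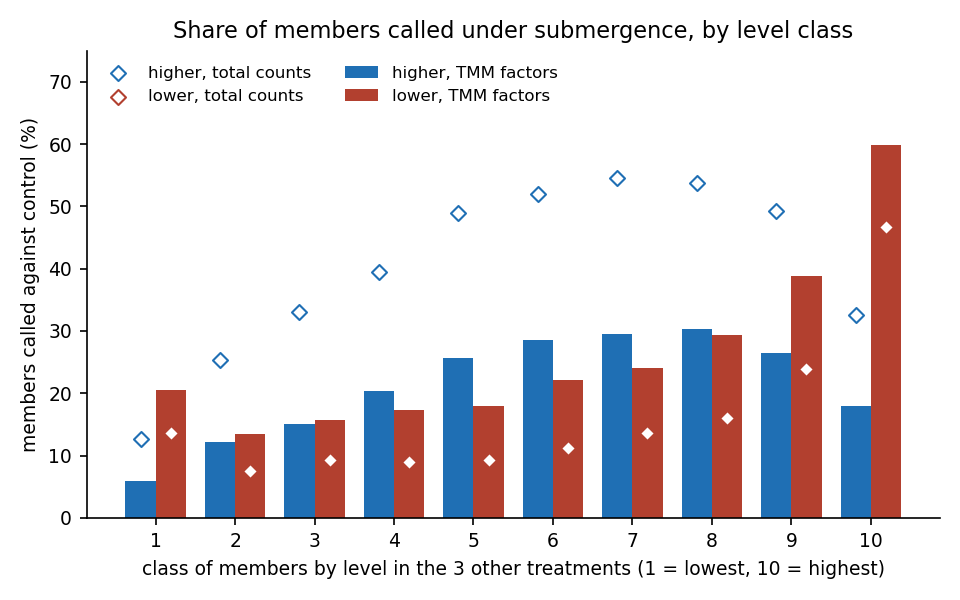
Share of members called higher (blue) or lower (red) under submergence than in control (vertical axis, %) in 10 classes of members by level in the other treatments (horizontal axis). Bars use TMM factors and diamonds total counts; the lower share is highest in class 10, at 59.9% with TMM and 46.7% with total counts.

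With total counts 46.7% of the highest class were lower and 32.6% higher, with a median of −0.32, whereas in class 7 the shares were 13.6% and 54.5% with a median of 0.75. Between these scalings the balance of calls turned from lower to higher in classes 2, 3 and 9, while in the lowest and the highest class lower calls outnumbered higher ones with both. Among the 100 members most read in the other treatments, 88 were lower and 6 higher than control with TMM factors, and 80 were lower and 9 higher with total counts. Their median log2 change was −1.99 with TMM and −1.35 with total counts. Over all members 25.9% were lower and 21.2% higher with TMM, and 16% and 40.2% with total counts.

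**Figure D3:**
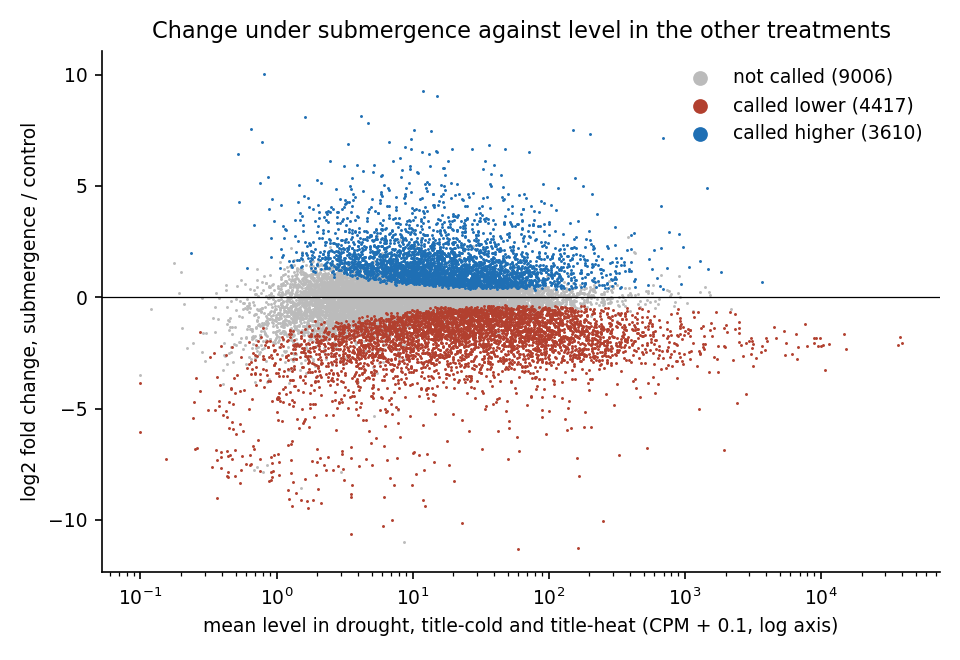
Fitted log2 fold change of each member between submergence and control (vertical axis) against its mean level in the other 3 treatments (horizontal axis, CPM plus 0.1 on a log scale), coloured by call. At the right, most points lie below 0, while the largest rises lie at low and middle levels; fitted changes of members with 0 counts under submergence depend on the prior count of the fit.

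A small set of members changed very strongly. At least 16-fold rises were found in 165 called members (0.969%) and at least 16-fold falls in 205 (1.2%), beside 4.83% and 0.765% of all tested rows. For these sizes, a group whose mean level lay under the floor of 3 counts per library was set at that floor. From a median of 3.85 CPM in control, the 165 rising genes reached a median of 137 CPM under submergence, and 17 of them reached 1000 CPM there. They made up 0.134 ± 0.033% (SD, n = 2) of all counts in control and 10.1 ± 0.57% under submergence. In drought, title-cold and title-heat their median levels were 10.1, 6.53 and 8.58 CPM, and they made up a mean of 0.315%, 1.35% and 0.416% of all counts.

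Many of these rises started close to the threshold. The lower control count was at most 20 in 68 of the 165, and its median was 23, beside 81 over all members. With at least 50 or 100 counts required in both controls, 49 and 27 members rose at least 16-fold. Total counts gave 272 rises and 138 falls of this size. For these falls the floor was kept from TMM factors, which allows larger falls than a floor from total counts would. All 165 rising genes were called higher under each of the 4 scalings. As they were chosen for rises far larger than the shift between scalings, this is no further support for them.

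From a median of 9.43 CPM in control, the 205 strongly falling genes went to a median of 0.257 CPM under submergence. Their mean level there was under the floor in 85, and 29 of these had 0 counts in both submergence libraries. Their medians in the other treatments were 6.62 CPM under drought, 3.05 CPM in title-cold and 7.69 CPM in title-heat. They held 1.33 ± 0.05% of the counts in control and 0.0631 ± 0.014% under submergence (SD, n = 2). With total counts 204 of them were called lower, which follows largely from their choice as falls far larger than the shift between scalings.

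**Figure D4:**
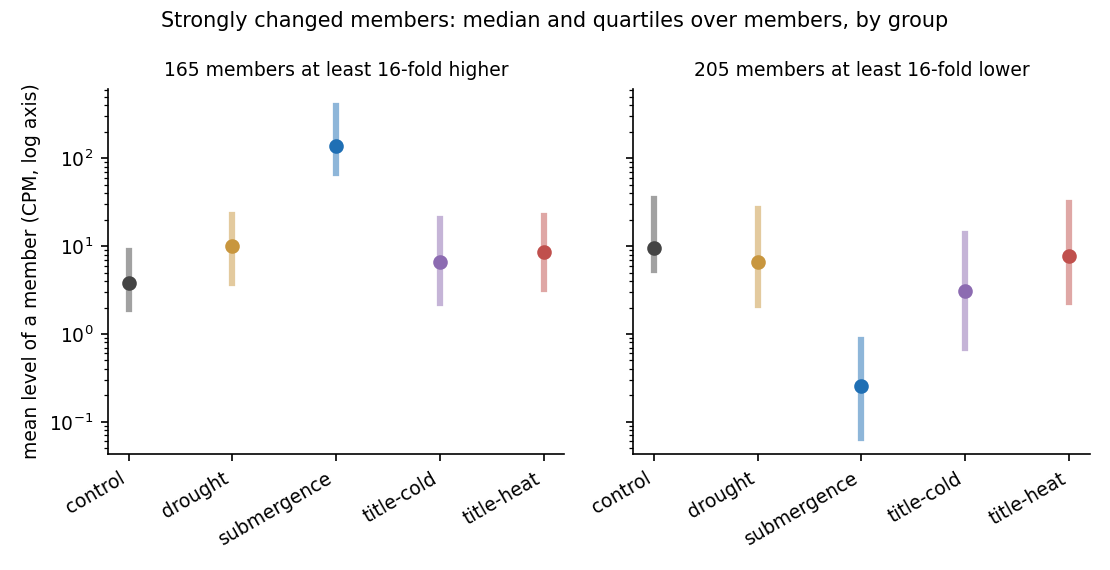
Median (point) and quartiles (bar) over members of the mean level per group (vertical axis, CPM on a log scale) for the 165 members at least 16-fold higher and the 205 at least 16-fold lower under submergence than in control. The rising genes had medians of 3.85 to 10.1 CPM outside submergence and 137 CPM within it; the choice of members fixes the contrast between control and submergence.

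By name, 4 clusters were taken by rule as the rise and the fall that were largest by fold and largest by CPM, among called members with at least 10 counts in both libraries of both groups. The cluster c153280.graph_c0 had 18 and 12 counts in control and 25011 and 26220 under submergence. Its counts were 6 and 9 under drought, 12 and 3 in title-cold and 5 and 9 in title-heat, so no library outside submergence had more than 18 counts. Its level was 1.59 ± 0.6 CPM in control and 1629 ± 34.8 CPM under submergence (SD, n = 2), a log2 change of 10.01 with a standard error of 0.42 (adjusted p = 1.79e-06, edgeR). Both control counts lay close to the threshold for entry.

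The cluster c158273.graph_c1 gained most in CPM. It had 275 and 496 counts in control and 114813 and 111864 under submergence, where it made up 1.05% and 0.887% of all counts and was the member with rank 6, up from rank 3160. Its log2 change was 7.51 with a standard error of 0.98 (adjusted p = 0.000502, edgeR). The title-cold libraries differed widely from each other in this cluster, with 755 and 6829 counts, while drought had 224 and 360 and title-heat 1510 and 1428. All 8 libraries outside submergence lay far below both submergence libraries.

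The cluster c154660.graph_c0 fell most by fold. Its counts were 20601 and 13557 in control and 129 and 365 under submergence, a log2 change of −6.87 with a standard error of 0.76 (adjusted p = 0.000212, edgeR). In title-cold it had 1888 and 1971 counts, fewer than in control but more than under submergence. Title-heat had 23677 and 21414, and drought 13473 and 49066. The control libraries lay above those of submergence and title-cold and below those of title-heat, with no overlap. Control and drought libraries did overlap.

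The cluster c152653.graph_c0 lost most in CPM. It was the member most read in control, with 512464 and 486960 counts or 4.72% and 4.32% of the library, and had 163562 and 209576 counts (1.5% and 1.66%) under submergence. Its log2 change was −2.15 with a standard error of 0.23 (adjusted p = 0.000105, edgeR), and −1.51 with total counts. Title-cold lay between, with 312811 and 241497 counts, and under submergence it still had rank 3 among members.

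**Figure D5:**
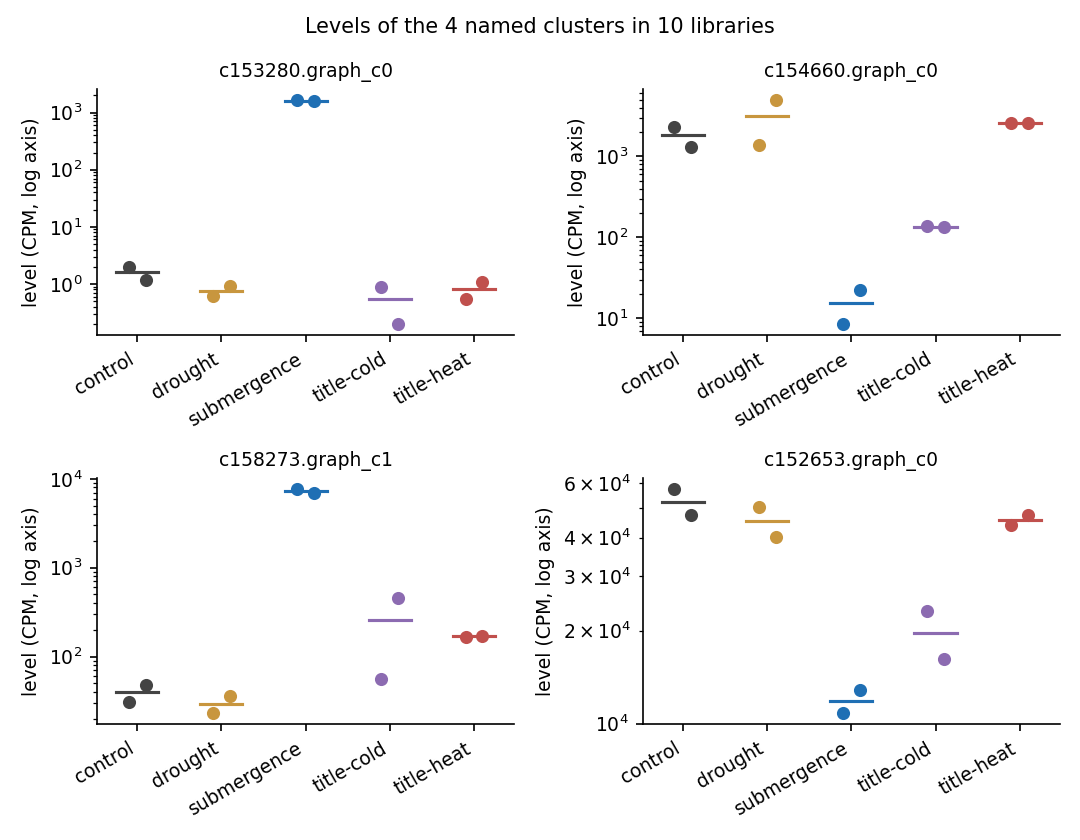
Level (vertical axis, CPM on a log scale) of the 4 named clusters in each of the 10 libraries, with points for libraries and a line at the group mean. For c153280.graph_c0 and c158273.graph_c1 both submergence points lie above all others, and for c154660.graph_c0 and c152653.graph_c0 below all others.

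Submergence was also set against the mean of the other 3 treatments. This contrast holds no control library, although control counts chose the members and control libraries entered the fit. In the same edgeR model, 4063 members (23.9%) were higher under submergence and 4423 (26%) lower, beside 33.9% and 18.7% of all tested rows. The median log2 difference of the higher genes was 1.03 and that of the lower genes −1.34. The higher genes had median levels of 24.8 CPM under submergence and 11, 12.7 and 10.2 CPM in drought, title-cold and title-heat, and their median in control was 10.6 CPM. The lower genes had a median of 10.1 CPM under submergence, 30.2, 19.2 and 32.8 CPM in those treatments and 23.3 CPM in control. With total counts 7542 members were higher and 2778 lower. Under all 4 scalings 3717 members (21.8%) were called higher and 2778 (16.3%) lower, beside 32.5% and 12% of all tested rows. These equal the higher calls with upper-quartile factors alone and the lower calls with total counts alone.

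With TMM factors, submergence was also the group that stood outermost in more members than any other. Both submergence libraries lay above the other 8 in 2432 members (14.3%) and below them in 2496 (14.7%), where the shares of all tested rows were 26.6% and 9.91%. Title-cold followed with 2257 members above (13.3%) and 2100 below (12.3%), beside 12.4% and 8.49% of all tested rows. Drought had 1978 (11.6%) and 1920 (11.3%), beside 10.2% and 8.19% of all tested rows. Title-heat had 1753 (10.3%) and 1634 (9.59%), beside 8.44% and 7.01%. Control was outermost least often, above in 1535 members (9.01%) and below in 1029 (6.04%), beside 5.61% and 4.96% of all tested rows. Levels here are CPM with TMM factors, and other scalings were not run for these counts. The counts are a description with no test of the difference between groups.

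Members need not be separate genes. In their identifiers, the number before the point was shared by 2801 members (16.4%) with at least 1 other member. What the shared number stands for is not given in the sources used here, and such rows may be parts or variants of related sequences, so they may not be independent.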

How the data were processed

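The authors deposited whole-number read counts per assembled cluster for 10 libraries. Its file name also mentions bermudagrass and cold, and the protocol labels name Arabidopsis and bermudagrass; the columns match the ryegrass sample descriptions. Per the submitters' processing notes RSEM and DESeq 1.10.1 were used, with no role given; aligner and assembly: not given in the sources used here. If RSEM made the counts, reads of similar sequences were split between them.

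Counts were analysed with edgeR 4.0.16 in R 4.3.3: filterByExpr (minimum count 10, minimum total 15) kept 27571 rows, TMM factors were applied to the filtered totals, and a robust quasi-likelihood model with a term per group was fitted to all 10 libraries (5 residual degrees of freedom; biological coefficient of variation 30%). The pipeline was also run on simulated counts with equal numbers of rises and falls. No shift in library composition was built into them, so that run cannot decide between scalings. Standard errors are the log2 change over the root of its F statistic. Replicate gaps use log2(CPM + 0.5). The labels do not say that replicates were separate cultures, so p-values measure only the spread between libraries, which may be technical. The same replicate numbers did not mark shared deviations (correlations across members −0.03 to 0.05). Alternatives were other scalings, filters, DESeq2 1.42.0, member rules, a replicate block and leaving out libraries.

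Members, lists and tests were chosen with earlier results of these data known. Named genes had to be called, have groups that did not overlap and reach 10 counts in both submergence libraries; the largest rise and fall by fold and by CPM were taken. The 16-fold sets and the shared identifier numbers were added after the values were seen. No sequence could be printed.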

Additional observations from a re-analysis of the deposited data

Results flagged for a closer look

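Outside the rows described, 4243 rows had 0 counts in both controls and at least 10 counts in both submergence libraries, a signal in data that the comparisons above do not use. All 29361 rows outside the rule together held 6.91 ± 0.31% of the counts under submergence and 0.513 ± 0.079% in control (SD, n = 2). The organism they come from was not tested.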

How the results depend on the processing

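Values follow the order higher and lower under submergence than control (3610 and 4417 as reported), beyond 2-fold (1461 and 2456), at least 16-fold (165 and 205), against the other treatments (4063 and 4423), the median log2 change (−0.10) and the difference in count share in percentage points (−6.39). Total counts gave 6841 and 2729, 3062 and 1345, 272 rises of at least 16-fold, 7542 and 2778, and a median of 0.54, which reversed its sign; total counts use no composition factor. Fewer rows enter with at least 50 counts in both controls (10670 members), where 2391 were higher, 803 were higher beyond 2-fold, 49 and 131 changed at least 16-fold, the median was −0.18 and the share difference −11.6. With at least 100 counts (7629 members) 1603 were higher, 499 were higher beyond 2-fold, 27 and 86 changed at least 16-fold, 1875 and 2897 differed from the other treatments, the median was −0.27 and the share difference −15.2. Members chosen by the 6 libraries of the other treatments (14254) gave 112 falls of at least 16-fold, a median of 0.0031 and a share difference of −7.42, with 47.9% of calls higher. Members chosen by control replicate 2 and compared with replicate 1 gave 283 rises of at least 16-fold and a median of 0.0035, and the reverse choice a median of −0.074. The median was −0.15 with RLE factors, −0.30 with upper-quartile factors (35% of calls higher), 0.038 with the fit on members alone (4288 and 4005 calls, 4369 and 4278 against the other treatments, so both orders turned), −0.059 with 1 CPM in 4 libraries and −0.14 with the compared groups alone. The sign of the median is therefore not settled; beyond the changes named, the cause was not tested.

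With a library left out in turn, higher calls numbered 2507 to 2656 and lower 3266 to 3527, calls beyond 2-fold 1013 to 1111 and 1655 to 1937, 16-fold changes 156 to 179 and 198 to 262, calls against the other treatments 2757 to 4145 and 3355 to 4410, the median ran from −0.11 to −0.066 and the share difference from −6.61 to −6.18. A group of 1 library is then assumed to vary like the others, and the floor for 16-fold falls was kept from the fit with all libraries. A replicate block gave 3379 and 4148 calls and changed no call of the named clusters. DESeq2 gave 3140 and 4349 (7 members without an adjusted p). All 40 alternatives for the named clusters had the same direction and side of the threshold. As the clusters were chosen for large changes in these same libraries, this is no further support for them. Members near 10 counts limit the precision.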
